A study of Mus musculus with 59 samples.

Results

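Glycolysis is represented here by 10 genes that carry glucose into the cell and on to lactate: the glucose transporter *Slc2a1*, the enzymes *Hk2*, *Gpi1*, *Pfkl*, *Aldoa*, *Gapdh*, *Eno1*, *Pkm* and *Ldha*, and the pyruvate dehydrogenase kinase *Pdk1*. They were taken by gene symbol from the 22134 genes with a listed transcript, each by its transcript with the highest mean raw count, and all 10 had counts in all 14 epiblasts, with between 499 (*Pdk1*) and 84651 (*Ldha*) reads per epiblast. The study asked what the histone methyltransferases G9a (encoded by *Ehmt2*) and Ezh2 do in the mouse epiblast, the layer of pluripotent cells that forms the embryo, shortly after implantation. RNA was sequenced from single epiblasts dissected at E6.25: 4 *Ehmt2*-/- and 4 control epiblasts of the *Ehmt2* cross, and 3 *Ezh2*-/- and 3 control epiblasts of the *Ezh2* cross, all of mixed genetic background and untreated. They came from 4 litters of the *Ehmt2* cross and 3 of the *Ezh2* cross, and which epiblasts shared a litter is not given in the sources used here. The labels give the controls as +/+, whereas the study's methods allow +/+ or +/-; both crosses were intercrosses of heterozygotes, so the deletion was not confined to the epiblast. The *Ehmt2* line had been bred to a *Pou5f1* (Oct4) EGFP reporter line, and which of the sampled embryos carried the reporter is not given in the sources used here. The study's methods describe each knockout as tested against the controls together, whereas its published list of *Ehmt2* comparisons sets knockout 4 against control 4 by name. Replicates 1 to 3 and replicate 4 were therefore kept as 2 comparison sets in the model. Calls of the 10 genes by edgeR that depend on this term are stated as such. In the *Ehmt2* cross, DESeq2 and the counts at an unadjusted p under 0.05 were run with the term only, so their dependence on it was not tested.

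In glycolysis, glucose enters through *Slc2a1*, is phosphorylated by hexokinase and cleaved into triose phosphates, and is then oxidised to pyruvate with a net gain of ATP. *Ldha* reduces pyruvate to lactate and so regenerates the NAD+ that *Gapdh* needs, whereas *Pdk1* phosphorylates and inhibits the pyruvate dehydrogenase complex and so limits entry of pyruvate into mitochondria. The primed pluripotent cells of the post-implantation epiblast are known for a high rate of glycolysis, and many of these genes are textbook targets of the hypoxia-inducible factor Hif1 and of Myc.

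Summed over 1 transcript per gene, the counts were between 12495094 and 28434545 per epiblast, and the highest of those outside *Ehmt2* replicate 4 was 18299529. *Ehmt2* control 4 and knockout 4 stood apart: chi-square per degree of freedom between epiblasts of a group was 156 to 206 for pairs with replicate 4 and 17.7 to 47.6 for all other pairs, so no pair was a duplicate. The targeted transcripts were lower in their knockouts, *Ehmt2* with a log2 fold change of −1.63 ± 0.21 (SE, adjusted p = 0.00454) and *Ezh2* with −2.52 ± 0.27 (SE, adjusted p = 0.016). The epiblast markers, among them *Dnmt3b*, *Pou5f1* and *Utf1*, were above 1 CPM (the count scaled to library size) in every epiblast for all 8 genes.

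The 10 genes differed widely in the control epiblasts when levels were expressed as CPM per kb of transcript, scaled over the 14 epiblasts (mean ± SD). In the 4 *Ehmt2* controls, *Ldha* was highest with 722 ± 135 CPM per kb and ranked 27th of 22134 genes. It was followed by *Gapdh*, the enzyme of the oxidation step, with 444 ± 88.3 CPM per kb, and by *Pkm*, which makes pyruvate, with 290 ± 82.5 CPM per kb. *Aldoa*, the aldolase, had 258 ± 98.0 CPM per kb and *Eno1*, the enolase, 137 ± 13.5 CPM per kb. These are the genes of the lower part of the pathway together with the cleavage step, and all their means stood above those of the genes of glucose entry.

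*Slc2a1* had 117 ± 22.9 CPM per kb, and *Gpi1*, which interconverts glucose and fructose 6-phosphate, had 52.7 ± 12.0 CPM per kb. The genes of the regulated early kinases were lower again, *Hk2* with 17.2 ± 6.16 and *Pfkl*, the liver-type phosphofructokinase, with 16.6 ± 3.28 CPM per kb. *Pdk1* was lowest with 4.70 ± 0.978 CPM per kb, at rank 4935. Neighbours in this order whose ranges overlapped were *Ldha* and *Gapdh*, *Gapdh* and *Pkm*, *Pkm* and *Aldoa*, *Eno1* and *Slc2a1*, and *Hk2* and *Pfkl*, although only the last pair was not in the same order in all 4 controls.

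**Figure D1:**
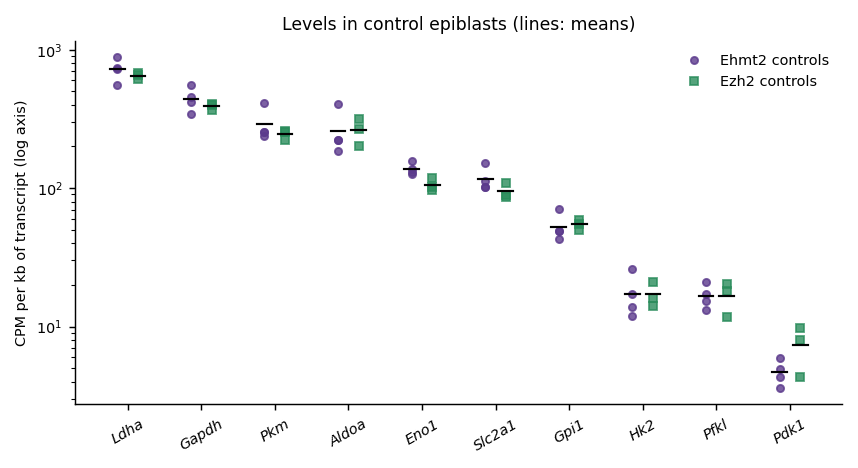
Levels of the 10 genes in the control epiblasts, on a log axis of CPM per kb of transcript; circles are the 4 *Ehmt2* controls, squares the 3 *Ezh2* controls and lines the group means. *Ldha* stands at the top and *Pdk1* at the bottom in both crosses, and *Hk2* and *Pfkl* lie at the same level.

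The 3 *Ezh2* controls gave nearly the same order. *Ldha* had 647 ± 32.0 CPM per kb, *Gapdh* 392 ± 20.0 and *Aldoa* 261 ± 56.4 CPM per kb. *Pkm* (244 ± 19.1 CPM per kb) came after *Aldoa* here, but their ranges overlapped and the order held in 2 of 3 controls. *Eno1* (106 ± 10.8), *Slc2a1* (94.6 ± 11.8), *Gpi1* (54.8 ± 4.42), *Hk2* (17.0 ± 3.58), *Pfkl* (16.7 ± 4.49) and *Pdk1* (7.36 ± 2.77 CPM per kb) followed, and overlapping neighbours were again *Eno1* with *Slc2a1* and *Hk2* with *Pfkl*. Reads of different isoforms of a gene could be counted more than once, so a level belongs to the chosen transcript.

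The chosen transcripts lie, in GRCm38, on chromosome 4 for *Slc2a1* (119108711 to 119137983) and *Eno1* (150236952 to 150248879), chromosome 6 for *Hk2* (82725025 to 82774454) and *Gapdh* (125161854 to 125165773), and chromosome 7 for *Gpi1* (34201330 to 34230336), *Aldoa* (126795234 to 126799254) and *Ldha* (46845839 to 46855627). *Pkm* lies on chromosome 9 (59656368 to 59679375), *Pfkl* on chromosome 10 (77986947 to 78009807) and *Pdk1* on chromosome 2 (71873224 to 71903858). All are protein-coding transcripts with between 7 (*Gapdh*) and 22 (*Pfkl*) exons. For *Gapdh*, 78 other annotated genes (75 of them pseudogenes) hold a stretch of at least 200 bases that is at least 95% identical, and those listed in the files had 0.389% of its counts. For *Eno1* there were 3 such genes, and the listed one had 7.96% of its counts, so its values are uncertain by reads that may have been assigned to either copy.

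The promoters of the 10 genes were searched on both strands for short letter strings. ACGTG and GCGTG are the forms of the core site bound by Hif1. CACGTG is the E-box bound by Myc with Max, and it contains ACGTG on each strand. Many of the 10 genes are textbook targets of Hif1 and Myc, so matches were foreseeable and are given as a description only. RefSeq windows of 300 bases, 250 before to 50 after the start, were taken from GRCm38.p6 and the window nearest the start of the chosen transcript was used, at 0 to 244 bases from it. ACGTG or GCGTG occurred in 8 of 10 windows, all except those of *Gpi1* and *Pkm*, against 43.8% of all 32817 windows. ACGTG alone occurred in 5 of 10 windows (19.6% of all windows) and GCGTG in 6 (32.4% of all). CACGTG occurred in 1 of 10, that of *Ldha*, which had it at 2 places, against 7.15% of all windows. The stretches before the start are shown, for the gene with the most matches (*Ldha*), for the first enzyme of the pathway (*Hk2*) and for the transporter (*Slc2a1*), with the matches in capitals.
*Ldha*, chr7:46845554-46845803, plus strand: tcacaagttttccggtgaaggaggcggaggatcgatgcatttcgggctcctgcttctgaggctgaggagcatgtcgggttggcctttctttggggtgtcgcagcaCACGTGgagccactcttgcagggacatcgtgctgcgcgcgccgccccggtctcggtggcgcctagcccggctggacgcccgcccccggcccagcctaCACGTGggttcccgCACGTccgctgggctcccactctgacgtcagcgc
*Hk2*, chr6:82774455-82774704, minus strand: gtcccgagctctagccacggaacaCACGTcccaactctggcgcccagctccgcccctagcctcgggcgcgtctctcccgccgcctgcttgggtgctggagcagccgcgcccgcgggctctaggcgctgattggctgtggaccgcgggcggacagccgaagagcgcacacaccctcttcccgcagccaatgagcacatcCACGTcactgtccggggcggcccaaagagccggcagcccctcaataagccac
*Slc2a1*, chr4:119108495-119108710, plus strand: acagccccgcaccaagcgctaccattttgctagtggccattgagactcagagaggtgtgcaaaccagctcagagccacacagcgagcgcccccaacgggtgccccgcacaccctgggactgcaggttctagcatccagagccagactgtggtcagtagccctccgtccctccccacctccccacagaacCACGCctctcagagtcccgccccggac
The *Ldha* stretch holds both E-boxes, the *Hk2* stretch holds 2 matches to ACGTG read on the other strand and the *Slc2a1* stretch holds 1 match to GCGTG read on the other strand. Each string contains CG, and the 32817 windows were not matched to the 10 for base composition, whose part in the shares was not tested. A match describes letters, and binding was not measured.

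In the *Ehmt2* cross, the fitted change was below 0 for all 10 genes, but it was small, and 1 of them, *Eno1*, was called at an adjusted p under 0.05 (edgeR's quasi-likelihood test with Benjamini-Hochberg adjustment over 49872 transcripts). At this threshold 0.670% of all tested transcripts were called, 253 higher and 81 lower. The median log2 fold change of the 10 genes was −0.26, against −0.01 over all tested transcripts. A fold change below 0 was found for 51.0% of all tested transcripts, and for 50.8% of the 3519 genes at least as abundant as *Pdk1*. None of the 10 passed the stricter rule that adds a log2 fold change beyond 1.4, which 0.499% of transcripts passed. DESeq2 called 3 of the 10, all lower (*Eno1*, *Pkm* and *Ldha*), and 3.12% of all tested transcripts in either direction (1.28% lower).

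**Figure D2:**
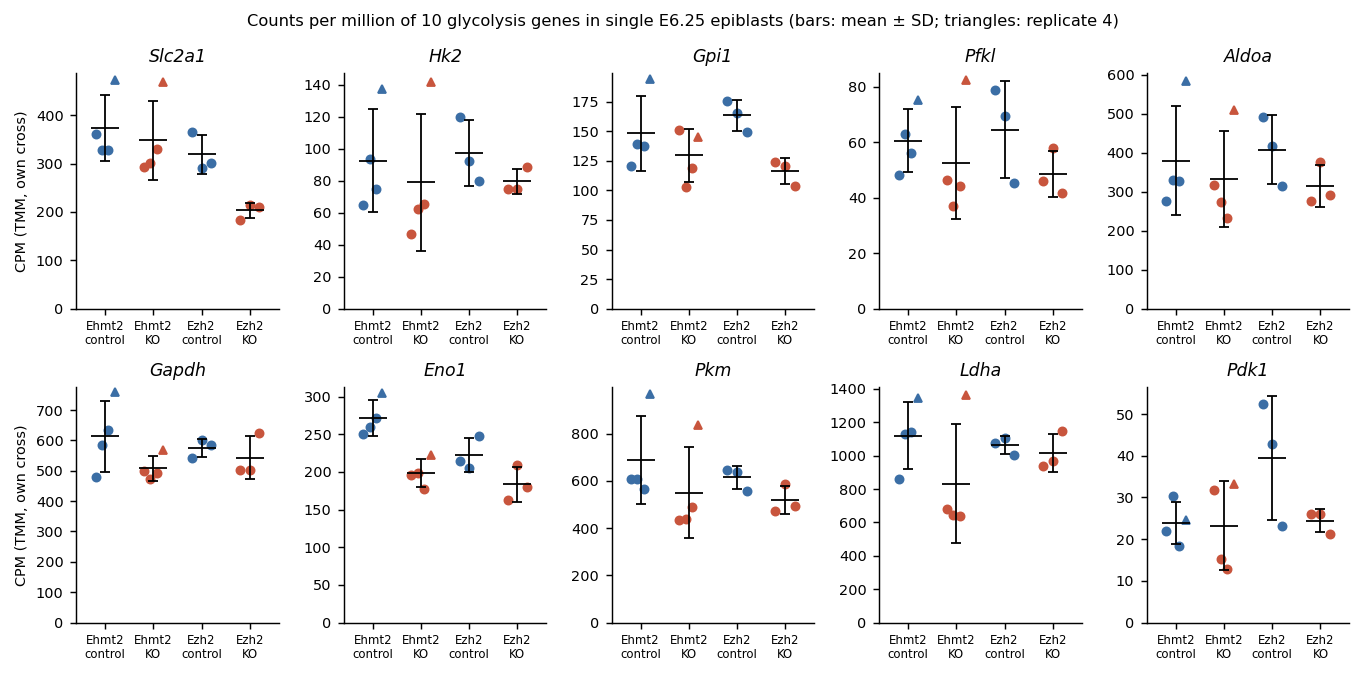
CPM of each gene (linear axes from 0) in every epiblast of the 4 groups; circles and triangles are single epiblasts, triangles being *Ehmt2* replicate 4, and black bars give the mean ± SD. *Eno1* in the *Ehmt2* cross and *Slc2a1* and *Gpi1* in the *Ezh2* cross are the genes for which no knockout reached the lowest control.

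*Eno1*, which makes phosphoenolpyruvate, had 250, 260, 272 and 305 CPM in the 4 controls, in order of replicate number, against 196, 199, 178 and 223 CPM in the 4 knockouts. The groups did not overlap, which held for 2.53% of all tested transcripts in the direction of lower knockouts and for 1 of these 10 genes. *Eno1* fell by 0.45 ± 0.08 (SE) on the log2 scale, or by 26.8% (adjusted p = 0.0366), and the two-sided exact permutation test on CPM gave p = 0.0286, the smallest value that 4 against 4 allow. The fold change was nearly the same whichever epiblast was left out (−0.47 to −0.42), yet the call was lost without any single one of controls 1 to 3 or knockouts 1 to 3, with adjusted p-values of 0.0742 to 0.129. It was also lost without the term for the comparison set, where the fold change was the same (−0.45) and the adjusted p was 0.408.

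*Pkm*, the last enzyme before pyruvate, had 606, 608, 566 and 966 CPM in controls and 435, 440, 489 and 837 CPM in knockouts. Within replicates 1 to 3 every knockout was below every control, and within replicate 4 the knockout was again the lower one, at 0.867 of its control. The log2 fold change was −0.34 ± 0.08 (SE, adjusted p = 0.0869), which did not pass; it did pass in replicates 1 to 3 alone (−0.39, adjusted p = 0.0438), likewise chosen after the values were seen.

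*Ldha* had 858, 1128, 1142 and 1347 CPM in controls and 678, 646, 638 and 1366 CPM in knockouts. Knockouts 1 to 3 lay below every control, whereas knockout 4 lay above every control and was 1.01 times its own control. The log2 fold change over both comparison sets was −0.50 ± 0.13 (SE, adjusted p = 0.124). In replicates 1 to 3 alone it was −0.67 ± 0.10 (SE, adjusted p = 0.0106), a choice made after seeing the data.

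*Gapdh* had 478 to 761 CPM in controls and 474 to 569 CPM in knockouts, with overlapping groups and a log2 fold change of −0.26 ± 0.10 (SE, adjusted p = 0.288). Together with *Eno1*, *Pkm* and *Ldha* it made 4 of 10 genes that were lower at an unadjusted p under 0.05, where 5.62% of all tested transcripts were. Among the 10, these 4 genes are those from triose phosphate oxidation to lactate. The cut was one of p and not of size: *Hk2* (−0.30 ± 0.15) and *Pfkl* (−0.26 ± 0.14) had fitted changes like that of *Gapdh*, with larger standard errors. Without the comparison-set term, the adjusted p-values of the 4 by edgeR were 0.408 for *Eno1*, 0.797 for *Gapdh*, 0.804 for *Ldha* and 0.876 for *Pkm*.

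None of the genes of glucose entry and of the upper pathway was called in the *Ehmt2* cross. *Slc2a1* had 328 to 472 CPM in controls and 293 to 468 CPM in knockouts (log2 fold change −0.11 ± 0.08). For *Hk2*, the first enzyme that glucose meets inside the cell, the ranges were 64.6 to 137 and 46.5 to 142 CPM (−0.30 ± 0.15), and for *Gpi1* they were 121 to 195 and 103 to 151 CPM (−0.18 ± 0.13). *Pfkl* had 48.2 to 75.0 and 36.9 to 82.3 CPM (−0.26 ± 0.14), and *Aldoa* 276 to 586 and 233 to 509 CPM (−0.19 ± 0.11). Adjusted p-values of these 5 were between 0.481 and 0.665. Their groups all overlapped, although for *Pfkl* knockouts 1 to 3 all lay below controls 1 to 3. That arrangement held for 4 of 10 genes (*Pfkl*, *Eno1*, *Pkm* and *Ldha*) and for 8.39% of all tested transcripts.

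*Pdk1* had 22.0, 30.3, 18.4 and 24.6 CPM in controls and 31.8, 15.3, 12.7 and 33.1 CPM in knockouts. Knockouts 1 and 4 lay above every control and knockouts 2 and 3 below every control. The log2 fold change was accordingly −0.07 ± 0.28 (SE, adjusted p = 0.951), and its sign turned without control 2 (0.11), knockout 2 (0.07) or knockout 3 (0.13).

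Replicate 4 had the highest value of its group for 9 of 10 genes in controls and 9 of 10 in knockouts, where 34.5% and 35.7% of all tested transcripts had it. Relative to its own control, knockout 4 was lower for 6 of 10 genes, with a median log2 ratio of −0.11. That is near the share over all tested transcripts, of which 51.2% were lower in knockout 4 than in control 4. Knockouts 2 and 3 were lower for all 10 (medians −0.38 and −0.31), and knockout 1 was lower for 7 of 10 (median −0.24), the exceptions being *Pdk1*, *Gpi1* and *Aldoa*.

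**Figure D3:**
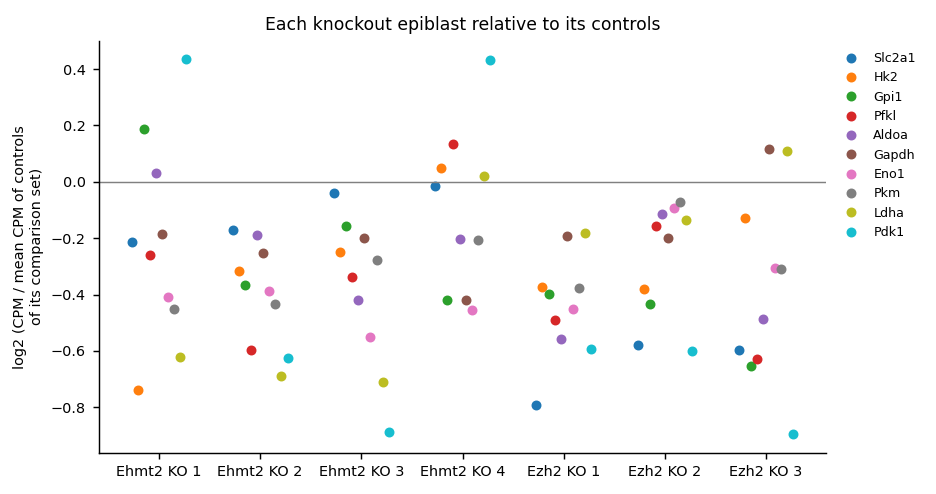
For each of the 7 knockout epiblasts, the log2 ratio of each gene's CPM to the mean CPM of the controls of its comparison set (3 controls, or 1 for *Ehmt2* KO 4), colours marking genes. Most points lie below 0, all 10 of them in *Ehmt2* KO 2 and 3 and in *Ezh2* KO 1 and 2, and *Pdk1* lies near 0.43 in *Ehmt2* KO 1 and 4.

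Genes used as markers of other tissues moved with the *Ehmt2* genotype, and are given here because the samples are dissected tissue. In such samples a change in the number of cells of a type and a change in RNA per cell cannot be told apart. Nor can expression of a listed marker in the epiblast cells themselves. Of 9 tested extraembryonic ectoderm markers, 5 were called higher in the knockouts by edgeR: *Elf5*, *Tfap2c*, *Bmp4*, *Sfmbt2* and *Esrrb* (0.670% of all tested transcripts were called, in either direction). *Elf5* was at 0 to 0.525 CPM in controls and, unevenly, at 0 to 59.6 CPM in knockouts. At an unadjusted p under 0.05, 7 were higher (6.15% of all), and DESeq2 called 6 higher, the same 5 and *Cdx2* (1.84% of all). The summed level of the 10 markers of that list was 27.7, 132, 67.5 and 41.5 CPM in the controls, in order, against 693, 150, 191 and 27.2 CPM in the knockouts, and no marker of it was at 0 throughout a group. Knockout 1, with the highest sum, had *Eno1* at 196 CPM, below every control. Knockout 4, with the lowest sum, had *Eno1* at 223 CPM, also below every control. The sum does not place knockout 4 at control level for each marker, and *Eomes*, not called, had the highest control mean (58.0 CPM). *Bmp4* was at most 2.50 CPM in controls and at least 4.23 CPM in knockouts. *Esrrb* was at most 0.551 CPM in controls and at least 1.08 CPM in knockouts. For *Elf5*, *Tfap2c* and *Sfmbt2* the groups overlapped. Without knockout 1 the log2 fold change of *Eno1* was −0.47 (adjusted p = 0.0778). The 8 epiblast markers, none of them called by edgeR although 4 were lower at an unadjusted p under 0.05 (5.62% of all transcripts) and DESeq2 called 3 lower (*Pou5f1*, *Fgf5* and *Dnmt3b*; 1.28% of all), summed to 2384 to 2732 CPM in controls and 1419 to 2126 CPM in knockouts, without overlap. The part of these differences in the values of the glycolysis genes was not tested.

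The other markers showed no call by edgeR or DESeq2 in the *Ehmt2* cross, and none of the visceral endoderm or maternal markers had an unadjusted p under 0.05. Of 10 tested visceral endoderm markers (*Apoa1*, *Apob* and *Dab2* were the most abundant per kb), 7 were below 0, and the list summed to 10.6 to 67.4 CPM in controls and 8.58 to 85.3 CPM in knockouts. Maternal blood and decidua markers, mostly *Prl8a2*, *Alas2* and *Prl3c1*, summed to at most 21.4 CPM, with *Hbb-bt* at 0 in every knockout. The mitochondrially encoded mRNAs, led by *mt-Co1*, *mt-Nd1* and *mt-Cytb*, summed to 3833 to 4488 CPM in controls and 4684 to 5487 CPM in knockouts without overlap, and 0 of 5 tested were called (3 were higher at an unadjusted p under 0.05, as were 6.15% of all transcripts).

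In the *Ezh2* cross, too, the fitted change was below 0 for all 10 genes, and none was called (edgeR's quasi-likelihood test, adjusted over 50855 transcripts). Only 6 transcripts, or 0.0118%, were called in the whole comparison, all of them lower and all also beyond 1.4 on the log2 scale (0.0118%), so that a call was rare for any gene. The median log2 fold change of the 10 genes was −0.33, against 0.01 over all tested transcripts. A change below 0 was found for 48.5% of all tested transcripts, and for 61.8% of the 2714 genes at least as abundant as *Pdk1*. At an unadjusted p under 0.05, 5 of 10 genes were lower (*Slc2a1*, *Gpi1*, *Eno1*, *Pkm* and *Pdk1*), where 2.97% of all tested transcripts were. With DESeq2, 2 of the 10, *Slc2a1* and *Gpi1*, passed an adjusted p of 0.05 as lower, and so did 0.163% of all tested transcripts (0.649% in either direction).

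*Slc2a1* had 365, 291 and 301 CPM in the 3 controls, against 184, 214 and 211 CPM in the 3 knockouts. The groups did not overlap, and the knockouts differed from one another by less than the gap to the controls. The log2 fold change was −0.65 ± 0.12 (SE), or 36.4% lower, with an adjusted p of 0.231 by edgeR and of 0.0004945 by DESeq2. *Gpi1* likewise did not overlap, with 176, 166 and 149 CPM in controls and 124, 121 and 104 CPM in knockouts. Its log2 fold change was −0.49 ± 0.12 (SE, adjusted p = 0.404 by edgeR and 0.0296 by DESeq2). These 2 of 10 genes had every knockout below every control, as did 6.61% of all tested transcripts; the exact permutation test on CPM cannot go below p = 0.1 with 3 against 3, and gave that value for both.

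*Pdk1* had 52.5, 42.7 and 23.2 CPM in controls and 26.1, 26.0 and 21.2 CPM in knockouts. It had the largest fitted change of the 10, −0.69 ± 0.25 (SE, adjusted p = 0.617), but control 3 lay among the knockouts. *Hk2* (79.7 to 120 CPM in controls, 74.7 to 88.8 in knockouts), *Pfkl* (45.2 to 78.8 and 41.7 to 57.8 CPM) and *Aldoa* (315 to 491 and 277 to 377 CPM) showed the same arrangement: overlapping groups and log2 fold changes of −0.29 ± 0.16, −0.41 ± 0.20 and −0.37 ± 0.17. In each of these 4 genes control 3 was the lowest control.

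The lower pathway held the 4 smallest fitted changes of this cross. *Eno1* had 205 to 248 CPM in controls and 163 to 209 CPM in knockouts (−0.28 ± 0.12), and *Pkm* 558 to 647 and 472 to 585 CPM (−0.25 ± 0.11). *Gapdh* had 543 to 600 and 501 to 624 CPM (−0.08 ± 0.11), and *Ldha* 1004 to 1109 and 936 to 1145 CPM (−0.06 ± 0.10). For both *Gapdh* and *Ldha*, knockout 3 was above every control.

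Visceral endoderm markers were high in 1 epiblast of each group of the *Ezh2* cross, with sums of 52.5, 1302 and 38.2 CPM in the controls, in order, against 2928, 50.2 and 48.1 CPM in the knockouts; no marker of the list was called by either tool. *Slc2a1* had a log2 fold change of −0.72 without control 2 and of −0.59 without knockout 1, and none of the 10 genes was called in either case. Extraembryonic ectoderm markers summed to 67.5 to 110 CPM in controls and 110 to 212 CPM in knockouts, 0 of 8 tested called by edgeR, 6 higher at an unadjusted p under 0.05 (4.05% of all transcripts) and 2 called higher by DESeq2 (*Bmp4* and *Sfmbt2*; 0.486% of all). Epiblast markers summed to 2383 to 2615 and 1925 to 2536 CPM, maternal markers to at most 15.5 CPM (*Hbb-bs* and *Hbb-bt* at 0 in every knockout), and mitochondrially encoded mRNAs to 3843 to 6946 and 4317 to 7353 CPM, with none called by edgeR or DESeq2 and 1 epiblast marker lower at an unadjusted p under 0.05. Their part in the values of the 10 genes was not tested.

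**Figure D4:**
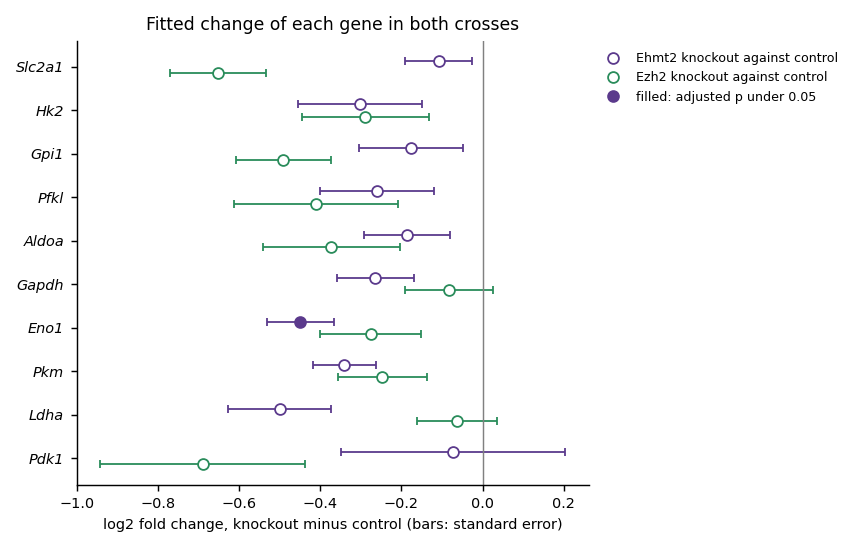
Fitted log2 fold change of each gene (knockout minus control, with its standard error) in the *Ehmt2* cross (purple) and the *Ezh2* cross (green); a filled point passed an adjusted p under 0.05. All points lie below 0, *Eno1* in the *Ehmt2* cross is the filled one, and *Slc2a1* and *Ldha* show the widest separation between crosses relative to their errors.

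The effects of the 2 knockouts were compared directly over the 14 epiblasts. None of the 10 genes passed an adjusted p under 0.05 for a difference between crosses, as did 0.0579% of 55248 transcripts. *Slc2a1* came nearest, with an *Ehmt2* effect 0.55 ± 0.14 (SE) above its *Ezh2* effect on the log2 scale (adjusted p = 0.248 by edgeR and 0.0554 by DESeq2, which called none of the 10 either). *Ldha* lay in the other direction, at −0.44 ± 0.18 (adjusted p = 0.531). For *Pdk1* the difference was 0.62 ± 0.43, for *Gpi1* 0.32 ± 0.18, and for the other 6 genes it was between −0.18 and 0.19, with standard errors of 0.13 to 0.26 that leave room for differences of either sign.

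The rest of the pathway was described by lists. For all tested transcripts the shares were as follows. At an unadjusted p under 0.05, 5.62% of all transcripts were lower and 6.15% higher in the *Ehmt2* cross, and 2.97% lower and 4.05% higher in the *Ezh2* cross. DESeq2 called 1.28% lower and 1.84% higher in the first and 0.163% lower and 0.486% higher in the second. Of 17 other glycolytic enzymes, 12 were tested in the *Ehmt2* cross and 14 in the *Ezh2* cross, and 0 were called in either direction by edgeR. At an unadjusted p under 0.05, 5 were lower and 2 higher in the *Ehmt2* cross, and 3 lower and 1 higher in the *Ezh2* cross. DESeq2 called *Pfkm* and *Pgam1* lower in the first and *Pgk1* lower in the second. *Pfkm*, another phosphofructokinase gene, had −0.82 ± 0.20 in the *Ehmt2* cross (adjusted p = 0.0976 by edgeR) and −0.23 ± 0.30 in the *Ezh2* cross. In all, 10 of 12 and 11 of 14 were below 0, with medians of −0.17 and −0.29 on the log2 scale. *Pgam1*, the phosphoglycerate mutase and the most abundant of the list per kb, had 744, 756, 675 and 1354 CPM in the *Ehmt2* controls and 620, 503, 562 and 988 CPM in the knockouts (−0.39 ± 0.08, adjusted p = 0.0635). In the *Ezh2* cross it had 862, 881 and 686 CPM in controls and 568, 668 and 603 CPM in knockouts (−0.40 ± 0.12, adjusted p = 0.531), so that no knockout reached the lowest control.

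*Pgk1*, the phosphoglycerate kinase, had 716, 675 and 439 CPM in the *Ezh2* controls and 350, 370 and 299 CPM in the knockouts, again without overlap (−0.85 ± 0.17, adjusted p = 0.32). In the *Ehmt2* cross it ranged from 335 to 595 CPM in controls and from 232 to 620 CPM in knockouts (−0.38 ± 0.16, adjusted p = 0.376). *Tpi1*, which interconverts the triose phosphates, had log2 fold changes of −0.51 ± 0.15 and −0.49 ± 0.16 (adjusted p = 0.185 and 0.578).

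Other transporters and regulators gave no call by edgeR. Of 9 glucose and lactate transporters, 8 were tested in each cross, 7 and 5 of them below 0; at an unadjusted p under 0.05, 3 and 1 were lower, and DESeq2 called *Slc2a8* and *Slc16a3* lower, 1 in each cross. *Bsg*, the chaperone of the lactate transporters, had −0.31 ± 0.10 and −0.21 ± 0.12. *Slc2a3*, the high-affinity neuronal-type glucose transporter, had −0.03 ± 0.16 and −0.14 ± 0.51, and the lactate transporter *Slc16a1* had 0.19 ± 0.12 and −0.11 ± 0.50. *Slc2a3* stood at 317 CPM in *Ezh2* control 2 and at 345 CPM in *Ezh2* knockout 1, the epiblasts with high visceral endoderm markers, and between 84.1 and 171 CPM in the other 4 of that cross. Of the enzymes that set fructose 2,6-bisphosphate, the activator of phosphofructokinase, 4 of 5 were tested in each cross and 1 was below 0 in each, *Pfkfb3*, with −0.24 ± 0.21 and −1.57 ± 0.44 (adjusted p = 0.51 in the *Ezh2* cross). *Pfkfb3* had 49.7, 26.5 and 9.84 CPM in the *Ezh2* controls and 9.53, 10.1 and 9.31 CPM in the knockouts, and its spread among controls exceeded the gap between the groups. *Pfkfb2* and *Tigar* lay above 0 in both crosses. DESeq2 called none of these enzymes either, and *Pfkfb3* was the 1 with an unadjusted p under 0.05, in the *Ezh2* cross.

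For the entry of pyruvate into mitochondria, all 13 genes were tested in both crosses, with 7 and 9 below 0 and medians of −0.02 and −0.06. *Pdha1* (0.31 ± 0.11 and −0.17 ± 0.15), *Pdhb* (0.04 ± 0.16 and 0.14 ± 0.15) and *Dld* (−0.08 ± 0.12 and −0.15 ± 0.12), subunits of the complex that *Pdk1* inhibits, were the most abundant per kb. The 7 genes of the pentose phosphate pathway, among them *Tkt*, *Pgd* and *G6pdx*, had 4 and 6 members below 0 and medians of −0.0009 and −0.15. Of 7 gluconeogenesis genes, 3 were tested in each cross (*G6pc3*, *Pck2* and *Pcx*), 2 below 0 in each. No gene of these 3 lists was called by edgeR. At an unadjusted p under 0.05 there were 2 lower and 3 higher genes over the 3 lists in the *Ehmt2* cross and 1 lower in the *Ezh2* cross, and DESeq2 called 2 higher in the *Ehmt2* cross, *Mpc1* and *Rpe*.

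Of 12 regulators of the hypoxia and Myc pathways, 11 and 12 were tested, 7 below 0 in each cross and none called by edgeR; 2 in each cross were lower at an unadjusted p under 0.05, and DESeq2 called *Egln1* lower in the *Ezh2* cross. *Max* had 0.14 ± 0.11 and 0.07 ± 0.16, *Mycn* −0.25 ± 0.16 and −0.27 ± 0.13, and *Myc* −0.35 ± 0.15 and 0.07 ± 0.15. Of 10 hypoxia targets outside glycolysis, 10 and 9 were tested, with 4 and 5 below 0, medians of 0.19 and −0.52 and no call by edgeR. At an unadjusted p under 0.05, 2 were lower and 1 higher in the *Ehmt2* cross and 3 lower in the *Ezh2* cross, and DESeq2 called *Bnip3* lower in both. *Bnip3*, a mitophagy receptor, had 71.2, 50.1 and 36.6 CPM in the *Ezh2* controls and 25.2, 23.9 and 16.1 CPM in the knockouts (−1.28 ± 0.25, adjusted p = 0.31), with no overlap. In the *Ehmt2* cross it ranged from 23.6 to 57.3 CPM in controls and from 7.55 to 43.9 CPM in knockouts (−0.91 ± 0.28, adjusted p = 0.211). *Kdm3a* had −0.53 ± 0.17 and −0.52 ± 0.15, while *Ddit4* had 0.86 ± 0.33 and −1.16 ± 0.60.

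By edgeR, 1 gene of sugar metabolism was called higher, and it belongs to the germline isozymes. *Pdha2*, the testis form of a pyruvate dehydrogenase subunit, had 0, 1, 1 and 0 reads in the *Ehmt2* controls and 139, 264, 306 and 343 reads in the knockouts, or 3.89, 7.52, 7.81 and 5.53 CPM (adjusted p = 5.19e-05). No overlap was left between the groups. In the *Ezh2* cross it had 2, 0 and 0 reads in controls and 17, 0 and 7 in knockouts and did not pass the filter on low counts. Of the 9 germline isozymes 8 were listed, 4 were tested in each cross, and none of the others was called. In the *Ehmt2* cross 3 of the 4 tested were below 0. *Pgk2*, which did not pass the filter in either cross, was at 0 CPM in the controls of both crosses and in the *Ezh2* knockouts. It had 0.056 to 1.12 CPM in the *Ehmt2* knockouts.

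Finally, the 10 genes were compared with one another over the 14 epiblasts, after centring within each cross and comparison set. Each gene's log2(CPM + 0.5) correlated with the mean of the other 9 with r between 0.41 (*Gapdh*) and 0.87 (*Pfkl*); *Aldoa* (0.84) and *Pkm* (0.82) were next, and *Pdk1* had 0.60. These epiblasts share library preparation and genotype groups, so the values describe them only. Of 6002 other genes with a mean of at least 10 CPM, the 5 most like the mean of the 10 were *Pgk1* (r = 0.95), *Fam162a* (0.92), *Slc16a3* (0.91), *Bnip3* (0.91) and *Kdm3a* (0.91). *Pgk1* follows *Gapdh* in the pathway, and *Slc16a3* exports lactate.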

How the data were processed

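RNA-seq of 14 single E6.25 epiblasts was used; from each, 750 pg of RNA had been amplified before library preparation. After trimming to 40 nt, the reads were aligned by the authors with TopHat2 (genome GRCm38), and the authors deposited raw counts per Ensembl release 74 transcript from HTSeq, without normalisation and without listing transcripts that had no count (set to 0 here). Whether the counting used strand is not given in the sources used here. In 2 files, *Ehmt2* control 4 and knockout 4, a row of unaligned reads (12.6% and 13.3% of the file) names no transcript and was left out of library sizes and tests. Of 72515 listed transcripts, 70021 (96.6%) matched GENCODE vM21 by identifier, and 1 transcript per gene, that with the highest mean count, stood for each gene.

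Each cross was fitted with edgeR (filterByExpr, TMM, glmQLFit and glmQLFTest; Benjamini-Hochberg over all tested transcripts), with a term for the comparison set in the *Ehmt2* cross. Standard errors were taken as the absolute log2 fold change over the root of the F statistic. CPM (counts scaled to the TMM-adjusted library size, in edgeR's unit) have the sum over all transcripts as library size, so a read that several isoforms share counts more than once. CPM stated beside a test were scaled within the cross. Single genes were also compared by two-sided exact permutation tests on CPM. Replicates are separate embryos. Molecular identifiers are not mentioned in the sources used here, and the precision given is the spread between epiblasts.

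The 10 genes are named throughout; of other lists, genes called in either cross, otherwise up to 3 with the highest CPM per kb. Genes named for a DESeq2 call, and *Slc2a3*, *Pfkfb3* and *Bnip3* values per epiblast, were chosen after their values were seen. The members and lists were chosen with earlier results of these data known. Alternatives were DESeq2, RLE scaling, no filter, 1 transcript per gene, the second-highest transcript, no comparison-set term, a replicate block, each epiblast left out, and, added after seeing the data, replicates 1 to 3 alone and DESeq2 for the difference between crosses. The code was tested on simulated data that held no difference between comparison sets. The changes put in were larger than any fitted for the 10 genes, so calls of that size were not tested. Protein sequences were not used here. Versions were R 4.3.3, edgeR 4.0.16, limma 3.58.1, DESeq2 1.42.0, Python 3.11.15, pandas 2.3.3, numpy 2.4.6 and scipy 1.17.1.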

Additional observations from a re-analysis of the deposited data

Results flagged for a closer look

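Among the 20 groups of 4 epiblasts formed by the 10 genes in the *Ehmt2* cross, 3 held an epiblast far from the other 3. The distance over the group's range was one that chance exceeds in about 1 group in 20. The groups are the same 4 controls and 4 knockouts seen in 10 correlated genes, so 3 of 20 cannot be set against that share. *Pkm* stood at 965.6 CPM in control 4, against 566 to 608 CPM in controls 1 to 3, and at 836.9 CPM in knockout 4, against 435 to 489 CPM in knockouts 1 to 3. *Ldha* stood at 1366 CPM in knockout 4, against 638 to 678 CPM in knockouts 1 to 3. All 3 values belong to replicate 4, which had the highest value of its group for 9 of 10 genes in controls and in knockouts. It is the comparison set with the highest depth and with a file layout of its own. The part of either in these values was not tested. Groups of 3, as in the *Ezh2* cross, were not examined in this way.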

How the results depend on the processing

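The number of the 10 genes called in the *Ehmt2* cross, 1 in the fit reported, was 2 with 1 transcript per gene (*Eno1* and *Pkm*), 3 with DESeq2 and 3 with replicates 1 to 3 alone (*Eno1*, *Pkm* and *Ldha*), and 0 without the comparison-set term; leaving out 1 epiblast at a time it was 0 to 3, with 0 when any epiblast of replicates 1 to 3 was left out and 3 without control 4 or knockout 4, where the comparison-set term takes up the remaining epiblast of that set, so that these fits repeat the contrast of replicates 1 to 3. In the *Ezh2* cross it was 2 with DESeq2 and 0 under each other alternative. The sources used here do not say whether same-numbered epiblasts shared a litter, and the numbers were not taken as pairs because not every correlation was above 0.1: same-numbered epiblasts correlated in their deviations with r of 0.06, 0.12, 0.20 and 0.42 in the *Ehmt2* cross and 0.03, −0.18 and 0.23 in the *Ezh2* cross, and not every epiblast correlated best with its own number. With the replicate block, 0 of the 10 were called in either cross (*Eno1* adjusted p = 0.12), and calls over all transcripts went from 334 to 117 in the *Ehmt2* cross and from 6 to 10 in the *Ezh2* cross. None of the 10 genes passed for a difference between the crosses with RLE scaling, 1 transcript per gene, the replicate block, each epiblast left out or DESeq2 (the last added after seeing the data, with 343 transcripts called against 32); the other alternatives were not run for that comparison.

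Over the alternatives tried, 9 of the 10 genes kept a fold change below 0 in the *Ehmt2* cross and 10 of 10 in the *Ezh2* cross; *Pdk1* in the *Ehmt2* cross went from −0.40 to 0.13 as single epiblasts were left out (0.11 without control 2, 0.07 without knockout 2 and 0.13 without knockout 3). The difference between crosses changed sign for *Hk2* (−0.19 to 0.12) and *Pfkl* (−0.0157 to 0.35) with single epiblasts left out. Calls over all transcripts were 185 with 1 transcript per gene, 1557 with DESeq2, 641 without the filter, 52 without the comparison-set term and 573 in replicates 1 to 3 alone in the *Ehmt2* cross, and 330 with DESeq2, 30 without the filter and 0 with 1 transcript per gene in the *Ezh2* cross. Scaling on 1 transcript per gene raised every level per kb, since fewer counts enter the total, and left the order as it was. Causes other than those stated were not tested. The lowest count of the 10 genes was 499, and the effect of depth on the calls was not tested.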
